A study of Rattus norvegicus with 192 samples.

Results

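Semaphorins, plexins, Eph receptors and ephrins are families of axon guidance genes, and their transcripts were examined in RNA-seq of the rat nucleus accumbens core. Members were chosen by symbol: semaphorins of classes 3 to 7, plexins A to D, EphA and EphB receptors, and A and B ephrins. This gave 51 of the 38354 genes in the deposited table, and 49 of them had a mean of at least 1 CPM (the expected count after a library's total is scaled to 1000000). The remaining 2 were hardly present: Epha1 lay at 0 to 1.53 CPM and Efna4 at 0 to 1.02 CPM in the libraries of accumbens profile described next. Of all genes, 15427 reached that mean and are called tested genes here.

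The rats were outbred heterogeneous stock animals, and the labels give no treatment, sex, age or strain beyond that. The table holds 159 of 192 labelled libraries, each from a different rat identifier, and the 33 others were not analysed here. Groups were taken from the identifiers: 67 libraries had an all-digit one (numeric), 77 one that starts with E21 and 2 one that starts with AA1. Another 13 had first been labelled unknown and received their identifier in a correction of genotype mismatches, 12 of them one of the E21 form (corrected E21) and 1 another. Total expected counts ranged from 14.6 M to 61.2 M per library.

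Markers of the labelled region were missing from some libraries. In 147 libraries Drd1, the D1 dopamine receptor of medium spiny neurons, was at 100 CPM or more (accumbens profile). In 11 libraries Th, the dopamine-synthesis enzyme, was at 100 CPM or more instead (midbrain profile), and 1 numeric library had neither. The midbrain-profile libraries were 10 numeric ones and 1 of the E21 group. Summed levels of 14 medium spiny neuron markers were 3917 to 9996 CPM in the accumbens-profile libraries and 360.6 to 608.4 CPM in the midbrain-profile ones. For 14 markers of midbrain dopamine neurons the sums were 30.3 to 96.9 CPM and 2078 to 6979 CPM, and En2, Foxa2, Lmx1b and Chrna6 had a median of 0 CPM in the accumbens-profile libraries. The first list holds Drd1 and the second Th, so part of each contrast was set by the sorting. By gene, 12 of the 14 medium spiny neuron markers had ranges wholly lower in the midbrain-profile libraries (6.57% of all tested genes did). Of the 14 midbrain dopamine neuron markers, 13 had ranges wholly higher there (6.00% of all tested genes did). Separately, E21 libraries 2, 5 and 76 stood apart from the other accumbens-profile libraries, with 10.35% to 33.27% of tested genes beyond 3 SD of the mean against at most 4.7% elsewhere. In library 5, 16 members lay beyond 3 SD, 15 of them low.

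Semaphorins are secreted or membrane-bound ligands, and plexins are their receptors; class 3 semaphorins mostly need a neuropilin as co-receptor. Eph receptors are receptor tyrosine kinases whose ligands, the ephrins, are themselves tethered to membranes, so signals can run into both contacting cells. In the developing forebrain and midbrain both systems guide growing axons, and in the adult they act at synapses, on vessels and in myelinating cells.

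Members whose levels in the 2 library profiles did not overlap carry the main contrast, and the sequence just upstream of 3 of them is shown so that the starts of Ephb2 (higher in the midbrain profile) and of Efna3 and Efnb2 (lower) can be compared. Of the 9 such members, these 3 have a RefSeq start within 100 bases of the deposited start. Each sequence is from RefSeq, assembly GRCr8, and runs 5′ to 3′ in the direction of the gene up to the base before the more upstream of the RefSeq and deposited starts. Capitals mark matches, on either strand, to 3 short motifs: the GC box is GGGCGG, the CCAAT box is spelled by its name, and the E-box is CANNTG. None of these matches overlap one another.
Ephb2: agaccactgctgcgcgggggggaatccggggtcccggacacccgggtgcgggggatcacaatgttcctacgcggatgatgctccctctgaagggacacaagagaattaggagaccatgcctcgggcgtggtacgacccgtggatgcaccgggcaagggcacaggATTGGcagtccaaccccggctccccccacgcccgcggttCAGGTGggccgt
Efna3: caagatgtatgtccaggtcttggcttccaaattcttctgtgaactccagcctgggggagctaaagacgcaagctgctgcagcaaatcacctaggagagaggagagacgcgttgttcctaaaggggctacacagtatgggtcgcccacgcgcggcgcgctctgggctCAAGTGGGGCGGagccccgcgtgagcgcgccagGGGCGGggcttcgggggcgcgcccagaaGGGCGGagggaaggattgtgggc
Efnb2: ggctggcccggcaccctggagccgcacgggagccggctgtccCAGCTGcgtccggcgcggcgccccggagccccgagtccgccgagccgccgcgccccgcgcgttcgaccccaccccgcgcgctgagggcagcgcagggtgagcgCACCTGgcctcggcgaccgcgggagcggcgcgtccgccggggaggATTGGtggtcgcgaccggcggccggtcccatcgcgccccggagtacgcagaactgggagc
The Ephb2 stretch covers chr5:154360460-154360674 on the minus strand, with 66.5% G or C. That of Efna3 covers chr2:177035839-177036088 on the minus strand, with 63.6%, and that of Efnb2 chr16:87484965-87485214 on the plus strand, with 80.4%. Matches were also counted in 27457 RefSeq stretches of 250 bases. The GC box occurred 3 times in the Efna3 stretch and in neither of the others, against a share of 32.4% of all stretches with at least 1. A CCAAT box occurred once in those of Ephb2 and Efnb2 (34.3% of all stretches). E-boxes numbered 1 in Ephb2, 1 in Efna3 and 2 in Efnb2 (65.2%). The TATA box, TATAAA, which 13.1% of all stretches hold, had no match in these windows. Neither had the cAMP response element TGACGTCA (1.7%) nor the NR4A element AAAGGTCA (1.1%).

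The first comparison sets the members' levels in midbrain-profile libraries beside those in accumbens-profile libraries. Because libraries were sorted by their own Drd1 and Th, the values are a description with no test. In bulk tissue, fewer cells of a type and less RNA per cell cannot be told apart. The ranges of 6 of 49 tested members (12.2%) lay wholly lower in the midbrain profile: Plxna2, Plxnd1, Epha4, Efna3, Efnb2 and Efnb3. Of all tested genes 6.57% did so. The ranges of 3 members, Sema6c, Sema6d and Ephb2, lay wholly higher (6.12%), near the 6.00% of all tested genes, and in either direction the share was 18.4% against 12.6%. By size, 9 members were lower by at least 1 on the log2(CPM + 1) scale (18.4%, against 7.07% of all tested genes) and 1 was higher by as much (2.04%, against 7.14%). Members just under that limit moved the latter count. It was 3 (6.12%, against 7.82%) with a pseudocount of 0.5 CPM and 4 (8.16%, against 7.92%) with accumbens-profile libraries of a below-median cortical score only. The median absolute difference was 0.61 over the members and 0.33 over all tested genes. Ratios between medians below are ratios of CPM, and differences are of mean log2(CPM + 1), midbrain minus accumbens profile.

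**Figure D1:**
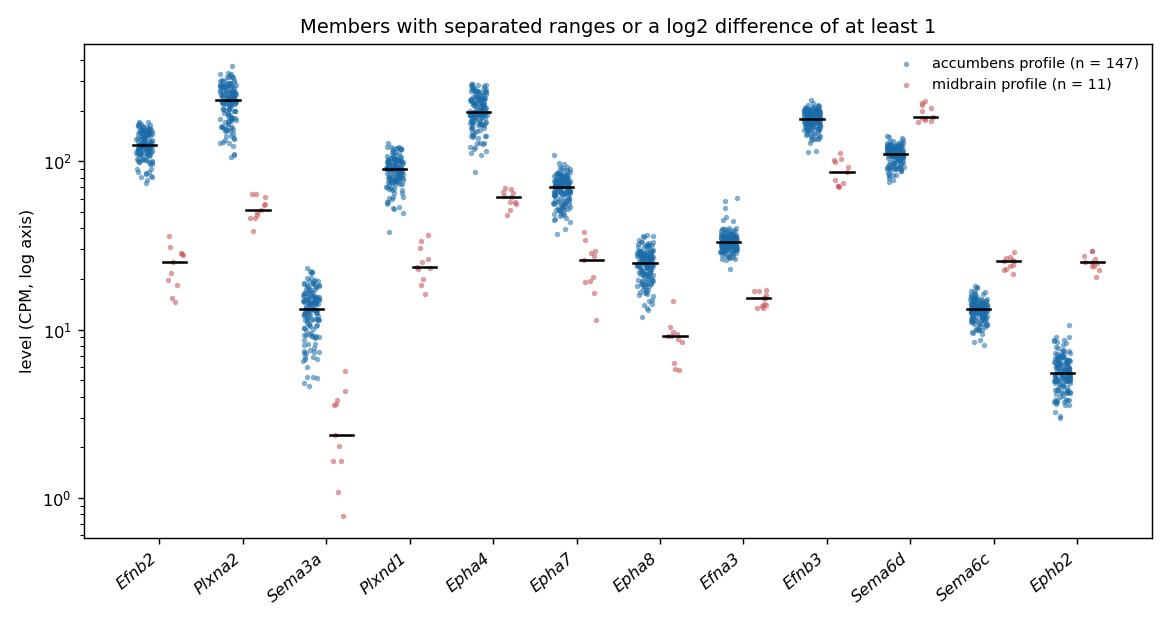
Level in CPM (vertical axis, log scale) of the 12 members whose ranges separate or whose log2 difference is at least 1, with 1 point per library and a bar at the median for the 147 accumbens-profile and 11 midbrain-profile libraries. Efnb2, Plxna2, Plxnd1, Epha4, Efna3 and Efnb3 do not overlap on the low side and Sema6d, Sema6c and Ephb2 on the high side, while Sema3a, Epha7 and Epha8 overlap in a few libraries.

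Among the 7 secreted class 3 semaphorins no range separated, and differences ran in both directions. Sema3a, a repellent for growing axons, had a lowest, median and highest level of 4.66, 13.3 and 23.2 CPM in the accumbens profile and 0.787, 2.36 and 5.67 CPM in the midbrain profile, a difference of -1.96. Only 5 of the 147 accumbens-profile libraries lay at or below the highest midbrain-profile one, so the overlap was slight. Sema3f, a ligand that uses neuropilin-2, went from 15.0, 28.6 and 41.5 CPM to 12.3, 13.7 and 17.2 CPM (-0.99), and 2 accumbens-profile libraries fell within that lower range. Sema3b stood the other way, at 1.95, 6.25 and 11.1 CPM against 7.97, 13.2 and 25.2 CPM (0.97), with 24 accumbens-profile libraries at or above the lowest midbrain-profile value. Sema3e, the ligand of plexin D1, was at 21.2, 46.9 and 74.7 CPM against 15.4, 29.6 and 60.9 CPM (-0.72), with broad overlap. The other 3, Sema3c, Sema3d and Sema3g, differed by 0.08 to 0.61.

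The 13 members of semaphorin classes 4 to 7, which are membrane-bound or membrane-anchored, differed by less than 1 throughout, and those that separated were class 6 genes. Sema6d, a transmembrane ligand of plexin A1, had a gene start at position 131801680 of chromosome 3 and levels of 75.2, 110.4 and 140.6 CPM in the accumbens profile against 171.1, 184.3 and 227.5 CPM in the midbrain profile (0.83). Every midbrain-profile library was thus above every accumbens-profile one. Sema6c (chromosome 2, position 185422636) did the same at lower levels, with 8.14, 13.3 and 18.1 CPM against 21.4, 25.6 and 29.0 CPM (0.88). Sema4d, a ligand of plexin B1 made by oligodendrocytes, came next, at 64.6, 114.9 and 189.7 CPM against 158.7, 199.6 and 231.9 CPM (0.79). A single accumbens-profile library reached the midbrain range of Sema4d. Sema4c, also a plexin B ligand, had 4 such libraries at a difference of 0.64.

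Plexins, the semaphorin receptors, split by gene. Plxna2 (chromosome 13, position 108683155), a receptor for class 3 and class 6 semaphorins, was at 106.6, 233.1 and 366.4 CPM in the accumbens profile and at 38.5, 51.4 and 64.4 CPM in the midbrain profile, a difference of -2.06. Plxnd1 (chromosome 4, position 150715706), the receptor of Sema3e, went from 37.9, 89.8 and 129.3 CPM to 16.4, 23.5 and 36.7 CPM (-1.79). The ranges did not overlap for either, and the medians differed by 4.54-fold and 3.81-fold. The accumbens-profile library closest to the midbrain range of Plxnd1 was E21 library 5. Without the 3 libraries that stood apart, the lowest accumbens-profile value of Plxnd1 was 49.2 CPM. Plxna1, which partners neuropilins, was instead higher in the midbrain profile, at 18.0, 38.0 and 68.2 CPM against 56.6, 81.2 and 86.2 CPM (0.99). In 3 accumbens-profile libraries it reached the midbrain range, and the numeric library of neither profile, which was rich in cortical markers, had 156 CPM. Plxnb3, an oligodendrocyte-enriched plexin, was at 15.4, 36.7 and 77.9 CPM against 53.6, 65.3 and 75.7 CPM (0.83). Plxna4 and Plxnb1 had differences of 0.00 and -0.01.

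Among the 8 tested EphA receptors, 5 were lower and 3 higher in the midbrain profile. Epha4 (chromosome 9, position 86406744), which binds ephrins of both classes, was at 86.8, 197.3 and 290.0 CPM in the accumbens profile, against a median of 61.6 CPM and a highest value of 69.7 CPM in the midbrain profile (-1.70). It was the single EphA member whose ranges did not overlap, and the lowest accumbens-profile value again came from E21 library 5; without the libraries standing apart it was 111.8 CPM. Epha7, a receptor for A ephrins, was at 37.0, 70.3 and 108.8 CPM against 11.5, 25.9 and 37.9 CPM (-1.50), with 1 accumbens-profile library in the midbrain range. Epha8 was at 12.0, 25.1 and 36.4 CPM against 5.74, 9.18 and 14.8 CPM (-1.38), with 5 such libraries. Epha6 differed by -0.87 and Epha3 by -0.79. In the other direction Epha5, a receptor for A ephrins expressed widely in forebrain neurons, was at 23.9, 57.4 and 110.0 CPM against 84.4, 98.7 and 136.1 CPM (0.82), with 11 accumbens-profile libraries in the midbrain range, and Epha10 and Epha2 differed by 0.63 and 0.53.

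Ephb2, an EphB receptor that also acts at excitatory synapses, showed the largest difference upward among the members. It was at 2.97, 5.56 and 10.7 CPM in the accumbens profile and at 20.6, 25.2 and 29.4 CPM in the midbrain profile, a difference of 2.00 and a ratio of medians of 4.53. No accumbens-profile library came within the midbrain range. Ephb1, its closest relative in function, was lower, at 46.8, 76.9 and 98.3 CPM against 37.6, 46.8 and 60.6 CPM (-0.66), with 9 libraries at or below the highest midbrain-profile value. Ephb4, a receptor of vessel walls, differed by 0.42, and the 2 remaining EphB members, Ephb3 and Ephb6, by -0.07 and 0.12. Ephb6, whose kinase domain is inactive, was at 203.8 CPM in the library of neither profile, against at most 94.2 CPM in the accumbens profile.

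The largest difference downward was that of an ephrin. Efnb2, a B ephrin that is also a marker of arteries, was at 74.5, 125.6 and 172.3 CPM in the accumbens profile and 14.5, 25.2 and 35.9 CPM in the midbrain profile. The difference of -2.37 was the largest on the log2(CPM + 1) scale among the tested members. The ratio of medians was 4.98, below that of Sema3a, at 5.64. Efnb3 (chromosome 10, position 54780727), a B ephrin of neurons and oligodendrocytes, was at 113.3, 178.9 and 230.3 CPM against 70.2, 86.1 and 112.7 CPM (-1.03). Its separation was narrow, since the lowest accumbens-profile and the highest midbrain-profile library differed by less than 1 CPM. Efna3, a membrane-anchored ligand of EphA receptors, was at 23.0, 33.2 and 60.4 CPM against 13.4, 15.4 and 17.3 CPM (-1.09). Efnb1 (-0.02), Efna2 (-0.15), Efna5 (-0.14) and Efna1 (0.18) overlapped widely.

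**Figure D2:**
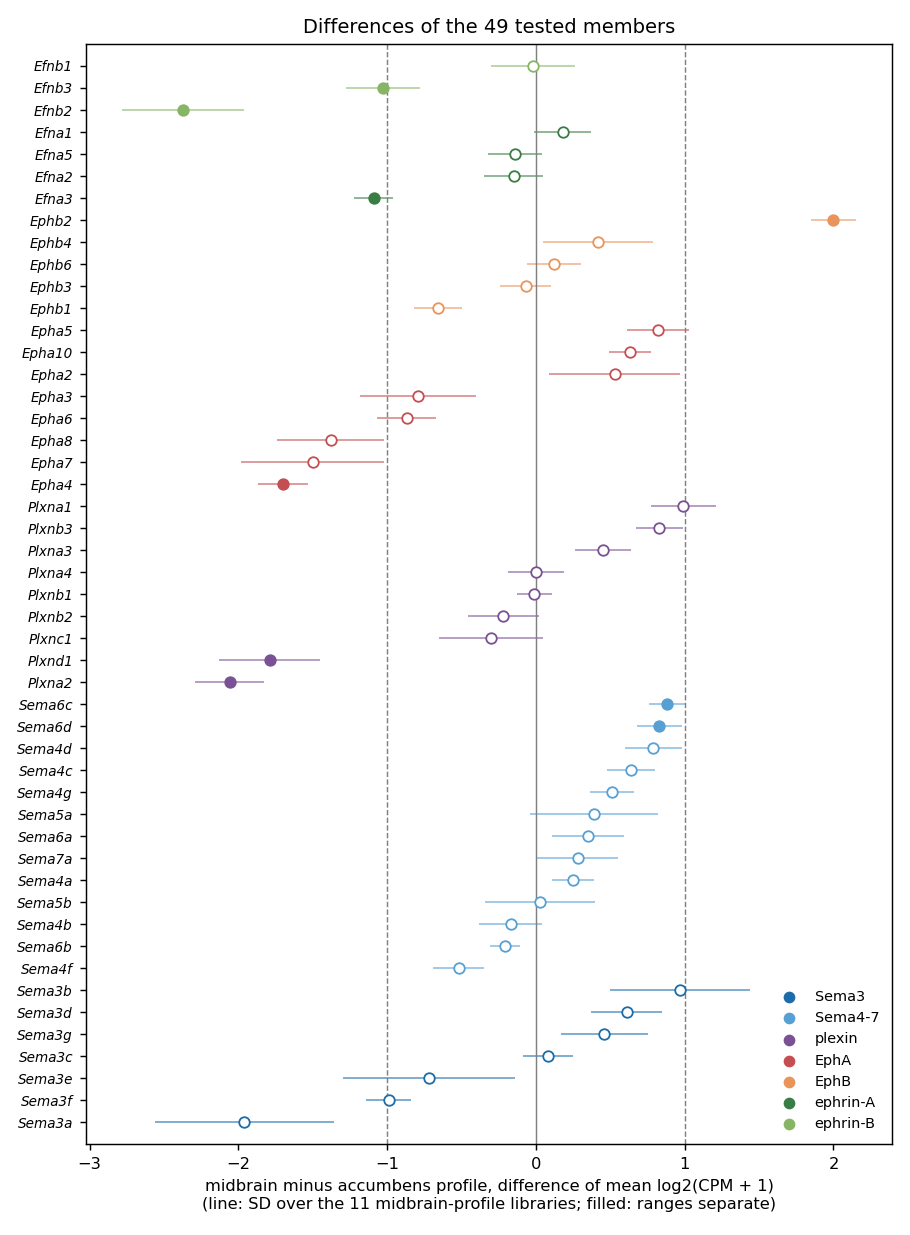
Difference of mean log2(CPM + 1), midbrain minus accumbens profile (horizontal axis), for the 49 tested members, coloured by family, with the SD over the 11 midbrain-profile libraries as a line; filled points have ranges that do not overlap and dashed lines mark a difference of 1. Efnb2 at -2.37 and Ephb2 at 2.00 lie at the ends, and no member of semaphorin classes 4 to 7 passes a dashed line.

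Across thresholds, the member just inside a difference of 1 was Efnb3, at -1.03, and those just outside were Plxna1 at 0.99 and Sema3f at -0.99. The single E21 library of midbrain profile lay outside the range of the 10 numeric ones for 14 of the 49 tested members. Of the separated members these were Sema6c and Plxnd1, lower at 21.4 and 16.4 CPM, and Efna3, higher at 17.3 CPM. Restricting both profiles to numeric libraries gave 14 members with separated ranges, 5 higher (10.2%, against 9.52% of all tested genes) and 9 lower (18.4%, against 11.3%). Other marker lists also differed between the profiles. Summed interneuron markers ran from 265.7 to 1258 CPM in the accumbens and from 93.9 to 199.1 CPM in the midbrain profile, with 6 of 8 genes wholly lower and 1 wholly higher. For markers of other midbrain and diencephalic neurons the sums were 15.3 to 45.9 CPM and 148.4 to 301.4 CPM, and the sums overlapped for neither list. Sums overlapped for astrocyte markers (4354 to 10808 CPM and 6981 to 11648 CPM), although 4 of 9 genes were wholly higher and 1 wholly lower. They also overlapped for cortical projection neuron markers (26.3 to 1486 CPM and 62.8 to 187.7 CPM), oligodendrocyte markers (10443 to 39904 CPM and 25612 to 35521 CPM) and vascular markers (208.9 to 675.2 CPM and 356.7 to 2475 CPM). Medians of the sums still differed, at 296.5 and 105.6 CPM for cortical, 17437 and 31320 CPM for oligodendrocyte and 366.4 and 1293 CPM for vascular markers. Lower by at least 1 were 6 of 8 cortical genes (7.07% of all tested genes). Higher by as much were 8 of 18 vascular and 1 of 10 oligodendrocyte genes (7.14% of all tested genes). The part of these marker lists in the members' differences was not tested.

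Genes that act with these families were described in the same way. Of all tested genes, 6.00% had ranges wholly higher in the midbrain profile and 6.57% wholly lower, with a median difference of 0.02. Of 25 co-receptors and signalling partners of semaphorins, 4 were wholly higher and 0 wholly lower, with a median of 0.32. Met, a receptor tyrosine kinase that associates with B plexins, was at 0.155, 0.88 and 2.93 CPM in the accumbens and 3.66, 5.57 and 13.8 CPM in the midbrain profile (1.80). Nrp2, the neuropilin-2 co-receptor, was at 6.48, 20.4 and 48.4 CPM against 30.4, 79.7 and 106.0 CPM (1.68) and overlapped. Dpysl3 and Rnd1, downstream of plexins, differed by 1.67 and 1.17 with separated ranges. Of 23 genes of Eph and ephrin signalling, 3 were wholly higher and 5 wholly lower, with a median of -0.24. Ngef, an exchange factor that acts downstream of EphA4, was at 466.3, 709.8 and 885.8 CPM against 25.3, 38.8 and 52.2 CPM (-4.22). Kalrn and Sipa1l1, which act on dendritic spines downstream of EphB and EphA receptors, differed by -2.65 and -2.33, and Vav2, an exchange factor for ephrin-driven endocytosis, by 2.04. Of 26 tested genes of other guidance systems, 3 were wholly higher and 0 lower, with a median of 0.36. Slit1 (1.53) and Slit3 (-1.52), ligands of Robo receptors, differed in opposite directions, and Dscam, a netrin receptor, and Ntng1, a membrane-bound netrin, were higher by 1.68 and 1.29.

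Within the accumbens profile, the spread between rats was somewhat larger for the members than for genes at large: the median SD of log2(CPM + 1) was 0.28 over the tested members and 0.24 over all tested genes. Among members with a mean of at least 10 CPM, SD was highest for Sema3g (0.52), Sema3a (0.46), Epha6 (0.44), Epha5 (0.40) and Plxna2 (0.38). It was lowest for the class 4 semaphorins Sema4a (0.15), Sema4b (0.17) and Sema4f (0.17). The value of Sema3g, a semaphorin of vessels, turned on few libraries. Its level ran from 0.603 to 28.4 CPM with a median of 17.4 CPM, the lowest value belonged to E21 library 5, and without the 3 libraries standing apart its SD was 0.35. The SDs of Sema3a, Epha6, Epha5 and Plxna2 without them were 0.46, 0.43, 0.40 and 0.36.

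Levels of several members varied together over the 147 libraries, which is given as a description. Of 1176 pairs of members, 13 (1.11%) had a Pearson r of at least 0.8 on the log2 scale, against 0.455% of all pairs of tested genes. Without the 3 libraries standing apart there were 11 (0.935%, against 0.315%). All 13 pairs lay among 7 genes: Plxna2, Plxna4, Plxnd1, Epha4, Epha6, Epha7 and Efnb2. Epha6 and Efnb2 had r = 0.93 (Spearman correlation 0.93, n = 147), with 0.92 without the 2 libraries farthest from the median. Their r was 0.96 within the 76 E21 libraries and 0.79 within the 56 numeric ones. Epha4 and Efnb2 had r = 0.92 (Spearman correlation 0.91, n = 147), with 0.95 within E21 and 0.82 within numeric libraries. For Plxna2 and Plxna4 r was 0.92 (Spearman correlation 0.89, n = 147), with 0.96 and 0.78. These relations were closer within E21 than within numeric libraries in each of the 12 pairs with the highest r. The most negative relation was that of Plxnb1 and Efna3, at r = -0.66 (Spearman correlation -0.49, n = 147), which was -0.53 without the 3 libraries and -0.31 within the numeric group.

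Levels of cell type markers differed between these libraries, and the levels of these genes moved with marker scores as well. A score is the mean of the standardised log2 levels of a marker list, itself scaled to an SD of 1 for the fits below. Efnb2 had r = 0.59 with the medium spiny neuron score, -0.58 with the astrocyte score and -0.43 with the oligodendrocyte score (n = 147). Epha4 had 0.67, -0.53 and -0.34, and Plxna2 had 0.44, -0.55 and -0.36. Epha6 had 0.46, -0.51 and -0.43, while Plxna4 had 0.20, -0.49 and -0.36. The astrocyte relation was closer without the 3 libraries standing apart. There r was -0.7 for Efnb2, -0.71 for Epha4, -0.7 for Plxna2, -0.61 for Epha6 and -0.62 for Plxna4. With the cortical score, r was -0.52 for Epha4, -0.41 for Efnb2, -0.32 for Epha6, -0.28 for Plxna2 and -0.05 for Plxna4. With the total expected count, r was 0.12 for Efnb2, 0.02 for Epha4 and 0.12 for Plxna2. Whether cell make-up accounts for the pairs was not tested.

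**Figure D3:**
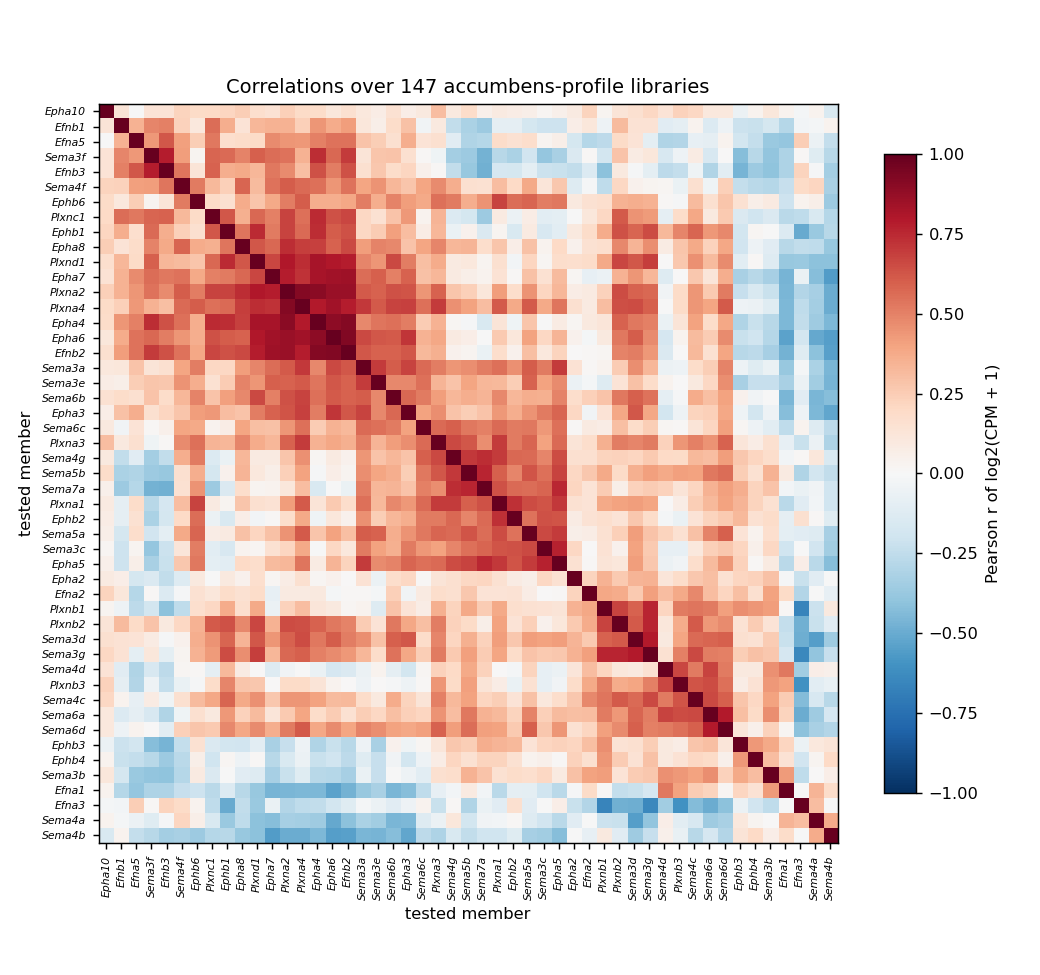
Pearson r of log2(CPM + 1) between the 49 tested members (both axes, ordered by average-linkage clustering) over the 147 accumbens-profile libraries, red for positive and blue for negative values. The dark block holds Plxna2, Plxna4, Plxnd1, Epha4, Epha6, Epha7 and Efnb2, where 13 pairs reach an r of at least 0.8.

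How members varied with the content of other cell types was tested with limma across all tested genes, as the change in log2(CPM + 1) per SD of a marker score over the 147 accumbens-profile libraries. No member is in a marker list. Each score was first fitted alone. With the oligodendrocyte score, 10 of 49 members rose (20.4%, against 27.2% of all tested genes) and 23 fell (46.9%, against 17.9%). The rises included Plxnb3 at 0.25 (SE 0.02, limma adjusted p = 1.95e-20), the A ephrin Efna1 at 0.20 (SE 0.02, limma adjusted p = 5.54e-20), Sema4d at 0.19 (SE 0.01, limma adjusted p = 4.03e-34) and Sema3b at 0.17 (SE 0.02, limma adjusted p = 2.73e-11). The falls included Epha6 at -0.19, Sema3a at -0.16, Plxna2 at -0.14 and Plxna4 at -0.12. All 3 B ephrins and 6 of 8 EphA receptors fell.

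With the astrocyte score 8 members rose (16.3%, against 32.9% of all tested genes) and 27 fell (55.1%, against 28.1%). The EphB receptors Ephb3 (0.14, SE 0.02, limma adjusted p = 1.69e-08) and Ephb4 (0.11, SE 0.02, limma adjusted p = 6.23e-08) rose, as did Plxnb1 (0.14) and Sema3b (0.12). The falls were led by Epha6 at -0.22, Plxna2 at -0.21, and Sema3e and Sema3a at -0.20 each. As with oligodendrocyte markers, all 3 B ephrins and 6 of 8 EphA receptors fell. In the fit with all 4 scores 4 members rose (8.16%, against 31.3% of all tested genes) and 35 fell (71.4%, against 34.5%). Without the 3 libraries standing apart 6 rose (12.2%, against 33.2%) and 29 fell (59.2%, against 35.8%).

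The vascular score, built on endothelial, mural and meningeal genes, had the opposite balance. With it 20 members rose (40.8%, against 27.5% of all tested genes) and 4 fell (8.16%, against 18.0%), where 45.6% of all tested genes were called. Sema3g rose most, at 0.24 per SD (SE 0.04, limma adjusted p = 3.17e-08), followed by Sema3d at 0.19 (SE 0.04, limma adjusted p = 5.72e-06), Ephb3 at 0.15 and Plxnb1 at 0.14. Efnb3, Sema3f, Sema4f and Efna3 fell, at -0.08, -0.07, -0.05 and -0.05. In a fit with all 4 scores Sema3f and Sema4f turned to 0.015 and 0.01 and Efnb3 was no longer called (limma adjusted p = 0.227). Efna3 was not called without the 2 libraries farthest from the median score (-0.02, limma adjusted p = 0.291). The slope of Sema3g rested in part on the libraries standing apart, and without them it was 0.16 (SE 0.03, limma adjusted p = 2.03e-07). The balance also moved. Without these libraries 15 members rose (30.6%, against 21.1% of all tested genes) and 8 fell (16.3%, against 21.3%). Under median-of-ratios scaling 15 rose (30.6%, against 19.8%) and 6 fell (12.2%, against 22.2%). In the fit with all 4 scores 37 rose (75.5%, against 38.0%) and 3 fell (6.12%, against 26.2%).

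With the cortical projection neuron score 15 members rose (30.6%, against 19.3% of all tested genes) and 14 fell (28.6%, against 23.0%). Epha5 rose most, at 0.28 per SD (SE 0.02, limma adjusted p = 8.64e-22), with Sema3c at 0.23 (SE 0.02, limma adjusted p = 4.43e-15), the GPI-anchored Sema7a at 0.22 (SE 0.02, limma adjusted p = 4.20e-25) and Sema5b at 0.20 (SE 0.02, limma adjusted p = 1.12e-16). Plxnc1, the receptor of Sema7a, moved the other way, at -0.18 (SE 0.02, limma adjusted p = 5.57e-13). Epha4 (-0.18), Sema3f (-0.17) and Epha6 (-0.14) also fell. With the label group as a covariate 12 members rose (24.5%, against 18.9% of all tested genes) and 17 fell (34.7%, against 30.1%). The fits over the 4 scores use the same libraries, and the astrocyte and vascular scores were correlated at 0.51.

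**Figure D4:**
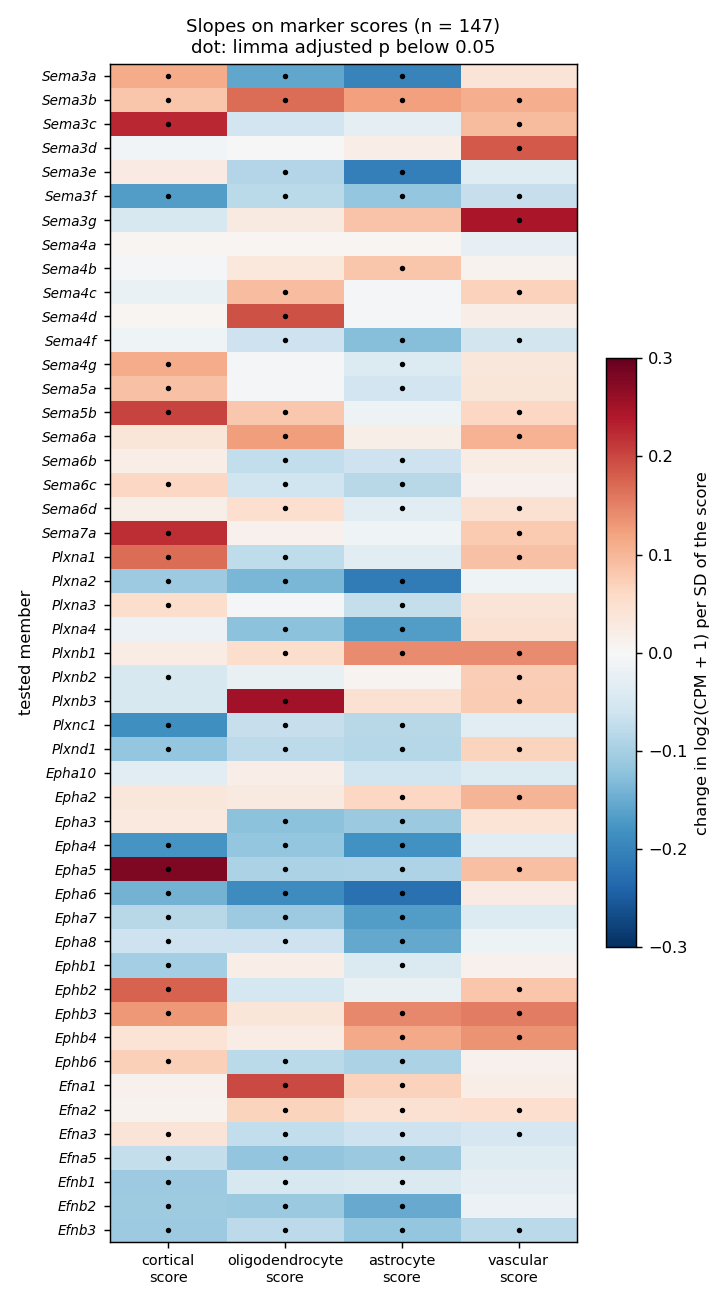
Change in log2(CPM + 1) per SD of the cortical, oligodendrocyte, astrocyte and vascular scores (columns) for the 49 tested members (rows, by family) over 147 libraries, red for rises and blue for falls, with a dot where the limma adjusted p is below 0.05. The vascular column is mostly red, with 20 rises and 4 falls, and the astrocyte column mostly blue, with 8 rises and 27 falls.

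The partner lists were counted in the single-score fits, beside the shares of all tested genes given above. Of the 25 semaphorin co-receptors and partners, 15 rose with the vascular score (against 27.5% of all tested genes) and 4 fell (16.0%, against 18.0%). With the cortical score 10 rose (40.0%, against 19.3%) and 4 fell (16.0%, against 23.0%). With the oligodendrocyte score 4 rose (16.0%, against 27.2%) and 7 fell (28.0%, against 17.9%), and with the astrocyte score 6 rose (24.0%, against 32.9%) and 8 fell (32.0%, against 28.1%). Of the 23 Eph and ephrin signalling genes, 12 fell with the astrocyte score (52.2%, against 28.1%) and 5 rose (21.7%, against 32.9%). With the oligodendrocyte score 10 fell (43.5%, against 17.9%) and 5 rose (21.7%, against 27.2%). The cortical score gave 5 rises (21.7%, against 19.3%) and 8 falls (34.8%, against 23.0%), and the vascular score 8 rises (34.8%, against 27.5%) and 5 falls (21.7%, against 18.0%). Of 26 genes of other guidance systems, 15 rose with the cortical score (57.7%, against 19.3%) and 4 fell (15.4%, against 23.0%). With the vascular score 13 rose (against 27.5% of all tested genes) and 1 fell (3.85%, against 18.0%). With the oligodendrocyte score 3 rose (11.5%, against 27.2%) and 12 fell (46.2%, against 17.9%), and with the astrocyte score 5 rose (19.2%, against 32.9%) and 15 fell (57.7%, against 28.1%).

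The form of the rat identifier is the other division the labels offer, and the 76 E21 and 56 numeric libraries of accumbens profile were compared across it. Of 49 members, 19 were lower in E21 libraries (38.8%, against 25.9% of all tested genes) and 3 higher (6.12%, against 11.7%), so 44.9% were called against 37.6% of all. All changes were small, and every member's ranges overlapped. Under median-of-ratios scaling 15 were lower (30.6%, against 18.0% of all tested genes) and 6 higher (12.2%, against 18.4%). Under quantile normalization 15 were lower (30.6%, against 17.2%) and 6 higher (12.2%, against 21.2%). In the CPM fit, where 25.9% of all tested genes were lower and 11.7% higher, 14 of 25 semaphorin partners fell and 2 rose. Of 26 tested genes of other guidance systems 16 fell and 0 rose. Of 23 Eph and ephrin signalling genes 6 fell, near the share of all tested genes, and 1 rose.

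Among ligands, Sema3c was at 10.5, 19.1 and 30.8 CPM (lowest, median, highest) in numeric and 7.28, 15.3 and 32.0 CPM in E21 libraries, a change of -0.34 (SE 0.06, limma adjusted p = 1.93e-06). Sema5b, a transmembrane semaphorin, was at 16.2, 26.1 and 39.8 CPM against 12.0, 21.6 and 35.2 CPM, a change of -0.26 (SE 0.05, limma adjusted p = 2.79e-05). Both groups covered much the same span, with E21 libraries reaching lower. Sema3d, Sema7a, Sema6b and Sema4g changed by -0.31, -0.20, -0.14 and -0.13. The 3 members that rose were Sema3f (0.15, SE 0.04, limma adjusted p = 0.00163), Sema4a (0.08, SE 0.02, limma adjusted p = 0.00675) and Efna1 (0.12, SE 0.05, limma adjusted p = 0.0414).

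Among receptors, Plxna1 was at 31.9, 41.6 and 68.2 CPM in numeric and 18.0, 34.3 and 63.3 CPM in E21 libraries, a change of -0.30 (SE 0.05, limma adjusted p = 4.48e-07). Epha5 was at 34.3, 62.7 and 110.0 CPM against 23.9, 50.5 and 92.7 CPM, a change of -0.33 (SE 0.06, limma adjusted p = 1.14e-05). Ephb2 was at 4.28, 6.22 and 9.06 CPM against 2.97, 5.01 and 10.7 CPM, a change of -0.26 (SE 0.05, limma adjusted p = 3.97e-06). The lower ends of all 3 lay in E21 libraries. Plxna3 changed by -0.16, and no B ephrin was called without a covariate. Cortical content moved with the label, with a mean cortical score of 0.37 (SD 0.84, n = 56) in numeric and -0.37 (SD 0.97, n = 76) in E21 libraries. With that score as a covariate Plxna1 stayed called at -0.21 (SE 0.05, limma adjusted p = 0.000208) and Sema3c at -0.21 (SE 0.05, limma adjusted p = 0.0015). Of the 22 called members 15 remained and 11 others were gained, so that 4 members were higher (8.16%, against 11.6% of all tested genes) and 22 lower (44.9%, against 30.7%). Calls were lost with a smaller change for Sema4g at -0.07 (limma adjusted p = 0.0578), Sema7a at -0.05 (limma adjusted p = 0.301), Sema3f at 0.03 (limma adjusted p = 0.434), Sema5a at -0.05 (limma adjusted p = 0.192) and Ephb6 at -0.09 (limma adjusted p = 0.127). They were lost with the change about as large for Plxnb1, at -0.11 before and after (limma adjusted p = 0.0516), and for Epha2, from -0.12 to -0.11 (limma adjusted p = 0.0659). The gained calls were Sema4b, Plxna2, Plxnb2, Plxnc1, Plxnd1, Epha4, Epha6, Epha10, Ephb1, Efna3 and Efnb2. Among them Plxna2 went from -0.11 to -0.24 (SE 0.07, limma adjusted p = 0.00293) and Efnb2 from -0.02 to -0.11 (SE 0.05, limma adjusted p = 0.0414).

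The 12 corrected E21 libraries were set against the same 76 E21 libraries, which the preceding comparison also used. Here 9 of 49 members were higher (18.4%, against 6.32% of all tested genes) and 0 lower, against 1.88%, and 8.20% of all were called in either direction. Without adjustment, 16 members had a limma p below 0.05. Epha5 was at 53.7, 74.4 and 89.6 CPM in corrected E21 libraries, a change of 0.52 (SE 0.11, limma adjusted p = 0.0011). Sema5b was at 22.0, 30.1 and 36.5 CPM, a change of 0.44 (SE 0.09, limma adjusted p = 0.000985). Every corrected E21 library lay above the E21 median of both genes, 50.5 CPM for Epha5 and 21.6 CPM for Sema5b, while the ranges overlapped. Sema3c (0.40), Sema7a (0.39), Epha10 (0.33), Plxna1 (0.32), Ephb2 (0.29), Plxna3 (0.23) and Sema4g (0.22) made up the rest.

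The mean cortical score of the corrected E21 libraries was 0.76 (SD 0.88, n = 12). With it as a covariate 0 of the 9 were called, 17 members having an unadjusted limma p below 0.05. The change of Epha5 was then 0.28 (SE 0.10, limma adjusted p = 0.0777) and that of Sema3c 0.17 (SE 0.10, limma adjusted p = 0.217), both smaller than without it. The changes of Sema5b (0.24), Plxna1 (0.18), Sema7a (0.16), Ephb2 (0.13) and Sema4g (0.11) were smaller too. Only for Epha10, at 0.38 (SE 0.11, limma adjusted p = 0.0647), and Plxna3, at 0.21 (SE 0.08, limma adjusted p = 0.0783), was the change about as large as before. Of all tested genes 0.104% were called in that fit. Without the covariate, where 6.32% of all tested genes were higher and 1.88% lower, 6 of 25 semaphorin partners were higher and 0 lower. Of 23 Eph and ephrin signalling genes 1 was higher and 1 lower, and of 26 other guidance genes 9 and 0. Batches of dissection or library preparation are not named in the labels and cannot be told apart from the label groups.

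**Figure D5:**
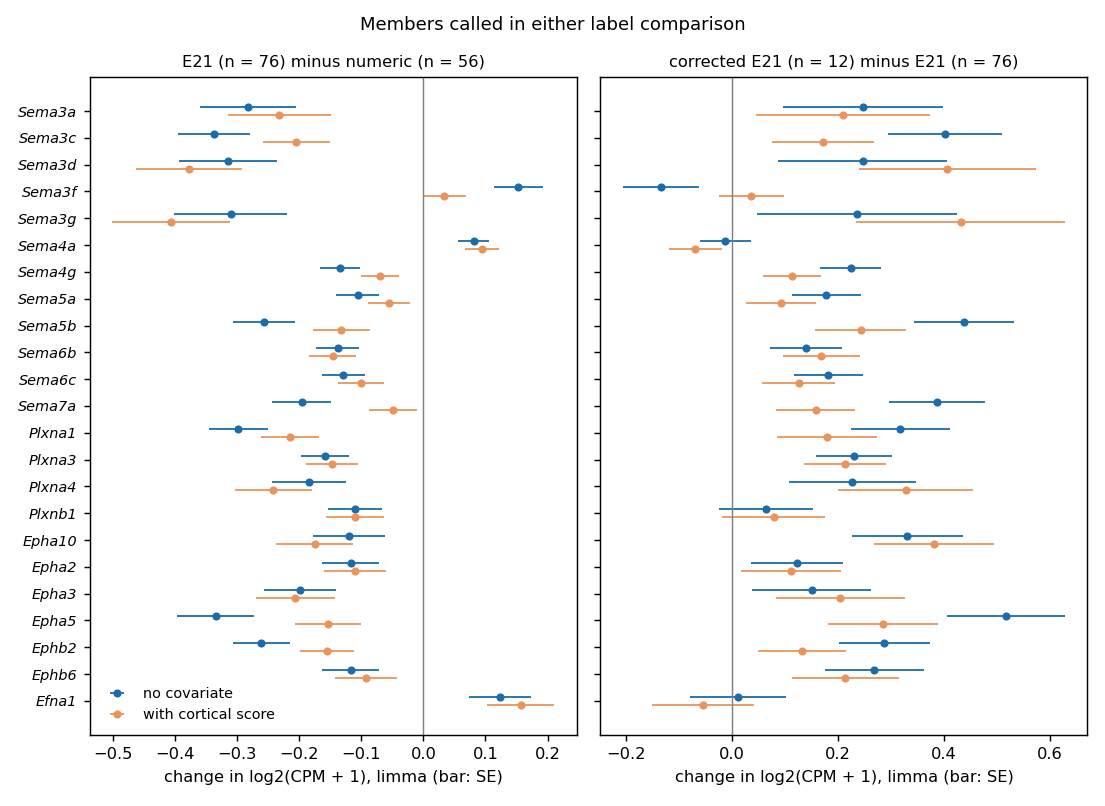
Change in log2(CPM + 1) with its SE from limma (horizontal axes) for the members called in either label comparison, without a covariate (blue) and with the cortical score as one (orange): E21 minus numeric on the left, corrected E21 minus E21 on the right. On the left most points lie below 0, with 19 members lower, and on the right the 9 called members lie above it.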

How the data were processed

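PolyA RNA of the nucleus accumbens core was sequenced, per the labels. The submitters' processing notes name kallisto 0.48; no source used here names the annotation. The authors' deposited table holds log2 values, which were read from the values themselves as unscaled log2(expected count + 1). Deposited gene positions equal RefSeq GRCr8 gene boundaries in 100.0% of symbols shared with that table. The deposited values were turned back to expected counts and scaled to a sum of 1000000 (CPM); comparisons used log2(CPM + 1), so changes of low genes are understated and levels are not per length. Genes sharing reads with copies or overlapping genes are uncertain. Depth was 14.6 M to 61.2 M expected counts (median 22.9 M).

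Label groups and scores were tested with limma 3.58.1 (R 4.3.3, intensity trend, two-sided, Benjamini-Hochberg over 15427 genes, threshold 0.05), checked on simulated data. Each rat identifier was taken as 1 replicate, and whether libraries were otherwise independent is not stated. Alternatives covered scaling, filter, pseudocount, covariates and libraries left out; 2 of them, leaving out the 3 libraries standing apart and taking accumbens-profile libraries with a cortical score below the median, were chosen after seeing the data. Members, lists and tests were chosen with earlier results of these data known. Genes were named by this rule: in the profile comparison, every separated member and up to 4 per family with the largest difference; in label comparisons, all called members or the 10 with the smallest p; for scores, up to 4 slopes per direction; for spread, the 5 highest and 3 lowest SDs at a mean of at least 10 CPM; in partner lists, up to 4 by difference. Any others were named after their values were seen. Python 3.11.15, numpy 2.4.6, pandas 2.3.3 and matplotlib 3.10.9 were used.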

Additional observations from a re-analysis of the deposited data

How the results depend on the processing

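Of 55 counts of members under alternatives, 49 stayed within 1.5 times the reported count. Members with separated ranges numbered 9, and 14 with numeric libraries only or 16 when the middle 90% of accumbens-profile libraries was used, where 20.8% and 23.2% of all tested genes separated. For corrected E21 against E21 libraries the 9 called became 5 when all libraries of the groups were used (15 with an unadjusted limma p below 0.05), 0 with the cortical score as a covariate (17 unadjusted) and 0 with the 4 scores as covariates (14 unadjusted). With all 4 scores in 1 fit, 40 members in place of 24 were called for the vascular score, and the slopes of Sema3f and Sema4f turned to 0.015 and 0.01. Without the 2 libraries farthest from the median vascular score the slope of Efna3 was no longer called (-0.02, limma adjusted p = 0.291). The causes of these shifts were not tested. Of single-member values in limma under alternatives, 308 kept direction and call, 34 kept direction but lost the call and 2 reversed. All 392 single-member values of the profile comparison moved by less than 1 SD, but 6 of them, in 5 members with a reported difference of at most 0.08 in size (Sema3c, Sema5b, Efnb1, Plxnb1 and Ephb3), changed sign. No paired analysis was possible, because each library had a different rat identifier and the labels tie no libraries together across groups. Epha1 and Efna4, at about 1 CPM or less, were too low for a difference to be read at this depth.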
